A study of Mus musculus with 10 samples.

Results

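Non-coding host genes of small nucleolar RNAs (snoRNAs) were followed in the tibialis anterior (TA), a fast muscle of the lower leg, of mice with cancer cachexia. The genes were taken as a list of 8 names, Gas5, Zfas1, Snhg1, Snhg3, Snhg5, Snhg6, Snhg8 and Snhg12, out of 39179 gene identifiers in the count table. Of the 8, 6 had a row in that table, and 5 (Gas5, Zfas1, Snhg5, Snhg6 and Snhg12) passed the filter on low counts and were tested among 12690 genes. Snhg1 and Snhg8 have no row under their current identifiers and were not analysed here. Snhg3 was listed with 0 to 2 counts per sample, 8 in all, and was not tested.

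The LLC group was 6 mice with tumors of Lewis Lung Carcinoma (LLC), an established mouse lung cancer line, injected under the skin of each flank. The control group was 4 mice injected with PBS, and both groups were otherwise untreated. Each mouse gave 1 library of total RNA, and all libraries were run in the same lane. The labels of the samples give strain C57BL/6J, an age of 10 weeks and collection at 23 days, whereas the text of the series gives C57BL/10 males, 8 weeks and 22 days. The 6 LLC mice were survivors of the full experiment, and the tumors came from a single cell line. In bulk muscle, fewer cells of a type and less RNA per cell cannot be told apart.

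A snoRNA host gene is transcribed, spliced and then has snoRNAs trimmed out of its introns. Box C/D snoRNAs guide ribose methylation of ribosomal RNA and box H/ACA snoRNAs guide its pseudouridylation, so the introns carry the product while the spliced exons of many hosts are short-lived RNAs cleared by nonsense-mediated decay. Many host transcripts, Gas5 (growth arrest specific 5) among them, begin with a run of pyrimidines like the mRNAs of ribosomal proteins. Such TOP (terminal oligopyrimidine) transcripts are translated and stabilised according to growth signals through mTOR, and the Gas5 RNA is known to build up when growth stops. In muscle, ribosome supply is one determinant of the capacity for protein synthesis.

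Starts of host genes are shown because that run of pyrimidines is the feature the hosts share with ribosomal protein genes. The lines below give 30 bases of the transcribed strand around a RefSeq start (GRCm38.p6), with 15 bases before it, and capitals mark a run made of a C followed by at least 4 more C or T that lies within 10 bases of the start.
Gas5, the first of its starts, chr1:161034586-161034615, plus strand: agggggcgggcccgcgagctcgacagcccg
Gas5, the second of its starts, chr1:161035151-161035180, plus strand: agccgccatctcagCCTTTCggagctgtgc
Snhg12, chr4:132308663-132308692, plus strand: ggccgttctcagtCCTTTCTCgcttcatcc
Snhg8, chr3:123508322-123508351, minus strand: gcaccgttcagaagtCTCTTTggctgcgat
Snhg5, chr9:88522883-88522912, minus strand: gagctgcggtgaaccgggctcgttCTTTTa
Zfas1, chr2:167062919-167062948, plus strand: ttgactgcgccccgggcggccgcaggtctc

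In Snhg12, Snhg8 and the second of both Gas5 starts the run sat at the annotated start itself, in Snhg5 it lay 9 bases further on, and at the first Gas5 start and in Zfas1 none was found. A host counted as having a run if any of its starts had one. A run was present in 5 of the 7 hosts with an entry (71.4%), in 35 of 58 ribosomal protein genes (60.3%) and in 9297 of all 27025 genes with an entry (34.4%). Snhg6 had no entry. The search covered the transcribed strand only, and a match describes these letters and not the use of a start.

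The host genes differ in how many snoRNAs they carry. GENCODE places 10 snoRNA genes within Gas5, 8 within Snhg1, 5 within Snhg12, 3 within Zfas1, 2 each within Snhg3 and Snhg5 and 1 each within Snhg6 and Snhg8, all on the host's strand, with Snord80 and Snora16a entered under 2 overlapping identifiers each. Gas5 (ENSMUSG00000053332) lies on chromosome 1 from 161034422 to 161038539 on the plus strand, and its transcript with most exons has 12 exons and only 502 bases, with a snoRNA gene in nearly every intron. An intronic pair of box C/D snoRNAs of Gas5 is printed as an example of the product, with the C box (TGATGA) and the D box (CTGA) in capitals.
Snord80, chr1:161037601-161037681, plus strand: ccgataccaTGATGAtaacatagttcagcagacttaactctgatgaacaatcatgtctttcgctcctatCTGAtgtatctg
Snord47, chr1:161038082-161038158, plus strand: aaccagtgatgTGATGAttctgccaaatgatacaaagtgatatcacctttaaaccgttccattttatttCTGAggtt

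**Figure D1:**
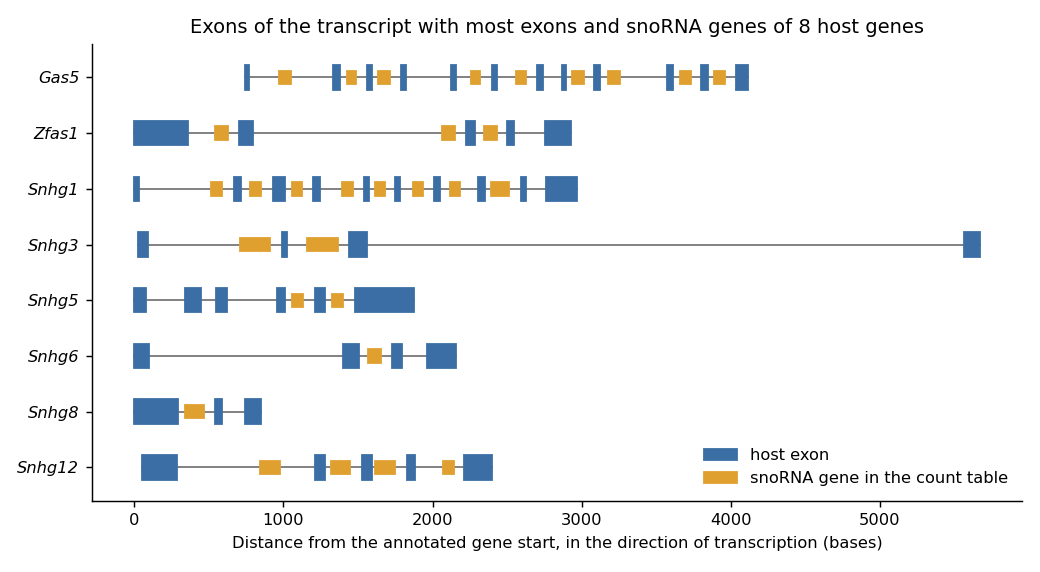
Maps of the 8 host genes, with the distance from the annotated gene start in bases on the x axis, the exons of the transcript with most exons in blue and the snoRNA genes that have a row in the count table in orange. All 30 snoRNA genes drawn sit in introns of these transcripts.

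The other hosts are compact genes too. Zfas1 (ENSMUSG00000074578), named for its place antisense to the 5′ end of Znfx1, spans 167062934 to 167065862 of chromosome 2 on the plus strand and shares 189 exonic bases with Gm27494 on its own strand and 82 with Znfx1 on the other. Snhg5 (ENSMUSG00000097195) spans 88521050 to 88522929 of chromosome 9 on the minus strand. Snhg6 (ENSMUSG00000098234) spans 9941959 to 9944118 of chromosome 1 on the minus strand and shares 127 exonic bases with Mcmdc2 on the other strand. Snhg12 (ENSMUSG00000086290) spans 132308623 to 132311024 of chromosome 4 on the plus strand, and Gas5, Snhg5 and Snhg12 share no exonic base with another gene apart from the snoRNAs. Snhg3 (ENSMUSG00000085241), also on chromosome 4, shares 135 exonic bases with Rcc1 on its own strand and 705 with Gm17300 on the other. The study's methods name the default settings of HTSeq, which count by strand, but for RefSeq genes, whereas the counts are listed by Ensembl gene, so whether those settings hold for these counts is unknown and reads in such overlaps cannot be assigned with certainty.

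Total counts were 16693209 to 21303084 per sample. Mitochondrial genes took 28.4% to 30.7% of counts in Control and 22.0% to 27.9% in LLC, with the lowest shares in LLC1 (22.0%) and LLC5 (22.9%). The library LLC1 stood apart from the other LLC libraries over all genes, at a chi-square per degree of freedom of 111 to 181 against any of them, and LLC5 at 25.8 to 56.4 against the other 4, whereas pairs among LLC2, LLC3 and LLC4 differed by 7.92 to 8.76. All 8 fast fibre markers were tested and summed to 117700 to 124800 CPM (counts scaled to a common library total) in Control and 81660 to 128000 in LLC, where LLC1 was the lowest, so the label of fast muscle held in every sample.

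All 5 tested host genes had higher means in LLC than in Control, by 1.32-fold (Zfas1) to 1.75-fold (Gas5), and in each of them LLC1 and LLC5 were the highest samples. None passed the test. With an adjusted p of 0.05 or less and at least 1.5-fold, edgeR's quasi-likelihood test called 0 of 5 host genes higher, beside 1.65% of all 12690 tested genes called higher and 3.99% called lower. At an unadjusted p of 0.05 or less, 2 of 5 (Gas5 and Snhg5) were higher, beside 12.7% of all tested genes, and DESeq2's Wald test also called 0 of 5.

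Gas5, the most abundant of the tested hosts by counts, was also the steadiest of them in Control. Its raw counts were 437, 449, 427 and 412 in Control 1 to Control 4 and 1412, 491, 485, 457, 1084 and 599 in LLC1 to LLC6. The 412 counts of Control 4 carry an exact 95% Poisson interval of 373 to 454, for counting error only. That interval covers all the Control counts, so the Control spread was no wider than counting error. Scaled to CPM these were 23.1, 22.2, 23.1 and 22.6 in Control and 72.6, 27.7, 28.1, 23.0, 53.7 and 33.5 in LLC.

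LLC1 and LLC5 stood 3.19-fold and 2.36-fold above the Control mean, LLC6 stood 1.47-fold above it, and LLC4 lay within the Control range while the other 5 LLC samples were above every Control sample. Mean levels were 22.7 ± 0.462 CPM for the 4 Control samples and 39.8 ± 19.4 for the 6 LLC samples (SD), so the coefficient of variation was 2.03% in Control and 48.7% in LLC. The log2 fold change was 0.81 ± 0.30 (SE), with an unadjusted p of 0.0185 and an adjusted p of 0.114 (edgeR). DESeq2 gave 0.82 with an adjusted p of 0.0534, and limma voom, which gives divergent samples less weight, gave 0.36 with an adjusted p of 0.0676. Without both LLC1 and LLC5, Gas5 was higher by 0.30 ± 0.094 on the log2 scale with an adjusted p of 0.0472 (edgeR), a difference below 1.5-fold, and over all alternatives its adjusted p ranged from 0.0472 to 0.363.

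Snhg12, host of box H/ACA snoRNAs among others, followed the same 2 animals without the smaller excess seen in LLC6 for Gas5. Its raw counts were 87, 84, 60 and 50 in Control and 225, 55, 70, 66, 176 and 47 in LLC1 to LLC6. LLC1 and LLC5 reached 3.14-fold and 2.37-fold of the Control mean, and the other 4 LLC samples lay between 0.713-fold and 1.10-fold of it.

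The counts of Snhg12 were the lowest of the tested hosts, and the 47 counts of LLC6 carry an exact 95% Poisson interval of 34.5 to 62.5, which covers counting error only. The log2 fold change was 0.60 ± 0.42 (SE) with an adjusted p of 0.357 (edgeR). It was 0.26 without LLC1, turned to -0.18 ± 0.18 without LLC1 and LLC5, and was -0.04 in limma voom.

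Snhg6, host of Snord87, had 150, 156, 163 and 119 counts in Control and 380, 161, 157, 125, 293 and 167 in LLC1 to LLC6. LLC1 and LLC5 were at 2.52-fold and 1.88-fold of the Control mean, LLC4 at 0.813-fold was below every Control sample, and the other 3 were at 1.17-fold to 1.21-fold. Means were 7.75 ± 0.947 CPM over the 4 Control and 11.3 ± 4.84 over the 6 LLC samples (SD), and the log2 fold change was 0.55 ± 0.27 (SE) with an adjusted p of 0.211 (edgeR). It was 0.33 without LLC1, 0.12 without both LLC1 and LLC5 and 0.19 in limma voom.

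Zfas1, host of Snord12 and related snoRNAs, had 139, 157, 141 and 114 counts in Control and 316, 117, 136, 115, 262 and 137 in LLC1 to LLC6. LLC1 and LLC5 were at 2.24-fold and 1.79-fold of the Control mean, and the other 4 lay between 0.800-fold and 1.09-fold of it, LLC4 below every Control sample. The log2 fold change was 0.40 ± 0.27 (SE) with an adjusted p of 0.350 (edgeR). It was 0.19 without LLC1, -0.06 ± 0.12 without LLC1 and LLC5 and 0.011 in limma voom.

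Snhg5, host of Snord50a and Snord50b, showed the narrowest spread among LLC samples, with a coefficient of variation of 25.5%. It had 105, 100, 113 and 98 counts in Control and 186, 120, 106, 114, 200 and 108 in LLC1 to LLC6. Here LLC5 (1.81-fold of the Control mean) was slightly above LLC1 (1.74-fold), and the remaining 4 were at 1.05-fold to 1.23-fold. The log2 fold change was 0.42 ± 0.18 (SE), with an unadjusted p of 0.0366 and an adjusted p of 0.157 (edgeR), and it was 0.16 without LLC1 and LLC5 and 0.22 in limma voom.

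**Figure D2:**
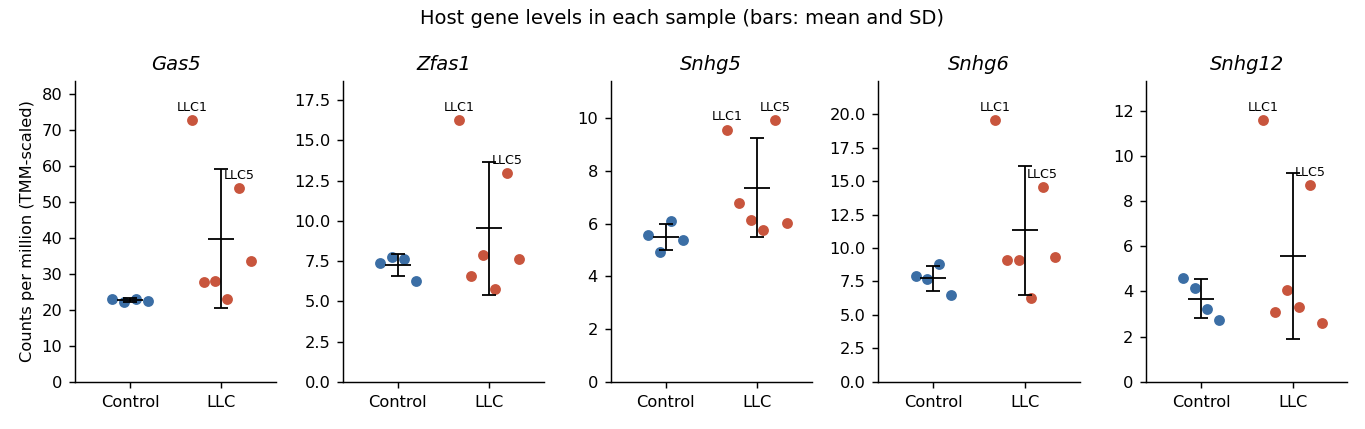
Level of each of the 5 tested host genes (y axis, TMM-scaled CPM, a separate scale starting at 0 for each gene) in 4 Control and 6 LLC samples, with points for samples and bars for the mean and SD. In every gene LLC1 and LLC5 are the highest points, while the other 4 LLC samples lie near, within or below the Control range, apart from Gas5, which reaches 33.5 CPM in LLC6 against at most 23.1 in Control.

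LLC1 and LLC5 were the highest pair of all 10 samples in 5 of 5 tested host genes. The same held for 18% of all tested genes (2287 of 12690), a count made after the values were seen. The part of what else set these 2 libraries apart, such as their low mitochondrial share, was not tested.

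Per kilobase of annotated exon, the Control levels ran from Snhg6 (6.76 ± 0.826 CPM per kb, SD, n = 4) and Gas5 (6.05 ± 0.123) through Snhg5 (3.18 ± 0.281) and Zfas1 (2.47 ± 0.235) to Snhg12 (1.53 ± 0.353). Only Snhg6 and Gas5 overlapped in Control among neighbours in this order. In LLC, Gas5 (10.6 ± 5.15, SD, n = 6) was above Snhg6 (9.87 ± 4.22) in 4 of 6 samples, Snhg6 being the higher in the other 2. The lengths count every annotated isoform, retained introns included, so the 3.76 kb used for Gas5 far exceed its spliced transcript. The transcripts with most exons have 502 bases in Gas5, 473 in Snhg6, 781 in Snhg5, 738 in Zfas1 and 606 in Snhg12. The order above therefore holds only for the lengths used and would change with those of single transcripts.

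The ribosomal protein genes are the reference class for a TOP-type host, and they too were highest in LLC1 and LLC5. All 79 were tested, 78 had a higher mean in LLC, 44 were higher at an unadjusted p of 0.05 or less, and 0 were called by edgeR (1 by DESeq2). Their median log2 fold change was 0.31, beside 0.0019 for all tested genes. Relative to the Control mean, their mean log2 level was 0.58 in LLC1 and 0.65 in LLC5, and -0.01 to 0.19 in the other 4 LLC samples. LLC1 and LLC5 were the highest pair in 77 of 79.

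The largest log2 fold changes among ribosomal protein genes were those of Rps27 (0.68 ± 0.20, SE, adjusted p = 0.0707, edgeR) and Rpl3 (0.62 ± 0.25, adjusted p = 0.139), and that of Rps2 was among the smallest (0.04 ± 0.096, adjusted p = 0.832). The smallest unadjusted p among them belonged to Rpl22 (0.43 ± 0.13, adjusted p = 0.0669), Rps27 and Rps18 (0.48 ± 0.15, adjusted p = 0.0831). Gas5 lay above all 79 ribosomal protein genes in log2 fold change, Snhg6 and Snhg12 above 77, Snhg5 above 72 and Zfas1 above 66.

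**Figure D3:**
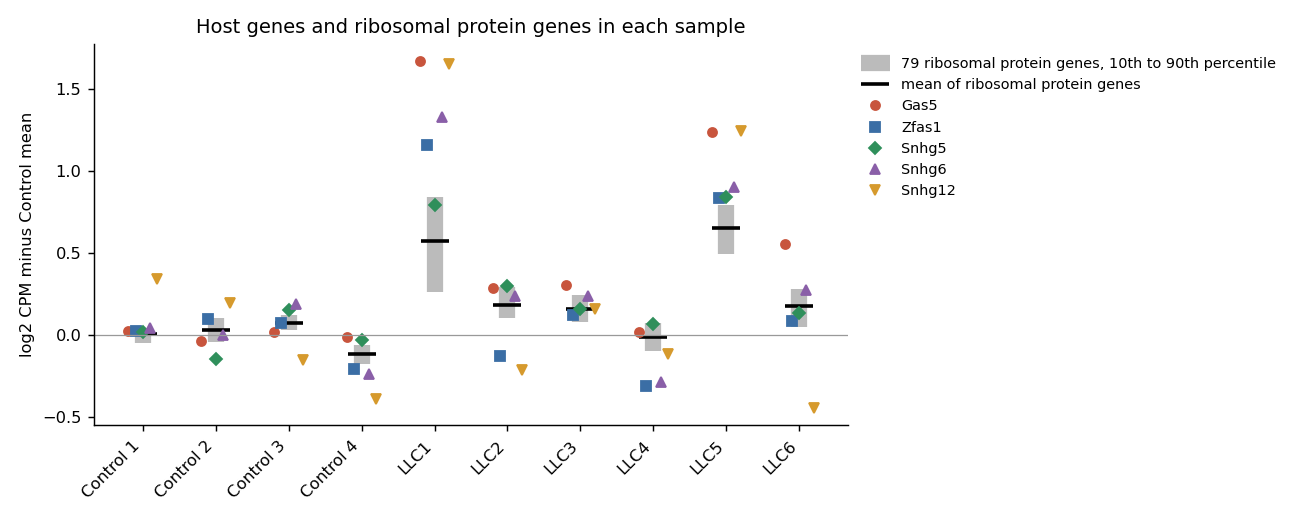
Log2 CPM minus the Control mean (y axis) in each of the 10 samples for the 5 tested host genes (symbols) and the 79 ribosomal protein genes (grey bar from the 10th to the 90th percentile, black line for the mean). In LLC1 the ribosomal protein mean is 0.58, while Gas5 is at 1.67, Snhg12 at 1.65, Snhg6 at 1.33, Zfas1 at 1.16 and Snhg5 at 0.79.

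The ribosomal protein genes were then held level, by setting the library scaling so that their mean log2 level was equal in all 10 samples, to ask whether a host gene moved beyond its reference class. None of the 5 host genes was called in that fit, beside 6.5% of all tested genes in either direction. The scaling lowered the median of all tested genes to -0.27 and moved the calls from 209 higher and 506 lower to 105 higher and 720 lower.

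Against ribosomal protein genes, the log2 fold change of Gas5 was 0.44 ± 0.20 (SE), with an unadjusted p of 0.0463 and an adjusted p of 0.166 (edgeR). It was 0.26 without LLC1, 0.17 without both LLC1 and LLC5 and 0.19 in limma voom. By sample, Gas5 relative to this class was at -0.07 to 0.10 in Control, and at 1.10 in LLC1, 0.58 in LLC5, 0.38 in LLC6, 0.14 in LLC3, 0.10 in LLC2 and 0.03 in LLC4 on the log2 scale. Thus 4 of 6 LLC samples lay above every Control sample, LLC2 at the edge of the Control range and LLC4 within it.

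For the other hosts the difference that remained was smaller than or close to its standard error. It was 0.20 ± 0.18 for Snhg6 (adjusted p = 0.447, edgeR), 0.21 ± 0.32 for Snhg12 (adjusted p = 0.640), 0.10 ± 0.13 for Snhg5 (adjusted p = 0.587) and 0.05 ± 0.18 for Zfas1 (adjusted p = 0.870). A p that misses the threshold does not show that these genes moved as ribosomal protein genes do. In LLC1 they remained above that class by 0.76 (Snhg6), 1.08 (Snhg12), 0.22 (Snhg5) and 0.59 (Zfas1) on the log2 scale, whereas other LLC samples lay below it, Zfas1 at -0.31 in LLC2 and -0.30 in LLC4, Snhg6 at -0.27 in LLC4, and Snhg12 at -0.39 in LLC2 and -0.62 in LLC6. Without LLC1 the fold changes of Snhg6, Zfas1 and Snhg12 in this fit became 0.053, -0.10 and -0.05.

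**Figure D4:**
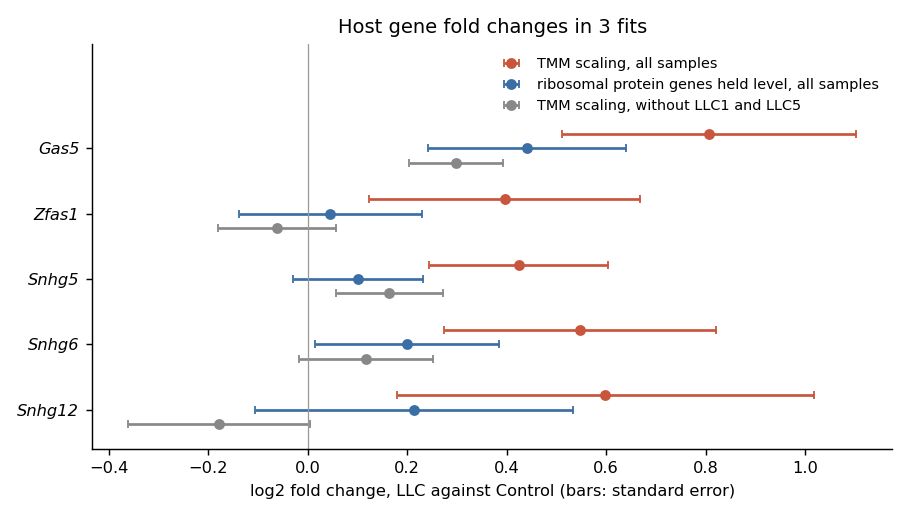
Log2 fold change of LLC against Control (x axis, bars for the standard error) of the 5 tested host genes with TMM scaling, with ribosomal protein genes held level, and with TMM scaling without LLC1 and LLC5. Gas5 goes from 0.81 to 0.44 and 0.30, and Zfas1 and Snhg12 are below 0 in the last fit, at -0.06 and -0.18.

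Other non-coding snoRNA hosts gave a mixed picture. Of 12 listed, 7 had a row, Snhg9 (24 counts in all) and Snhg11 (40) did not pass the filter, and Snhg4, Snhg7, Snhg10, Snhg14 and Snhg16 were not analysed here. Of the 5 tested, 3 had higher and 2 lower means in LLC, and edgeR called 0. Epb41l4aos had 27, 32, 33 and 24 counts in Control and 122, 39, 42, 28, 98 and 40 in LLC1 to LLC6, the same order of animals as Gas5 at its extremes. Its log2 fold change was 1.09 ± 0.39 (SE) with an adjusted p of 0.111 (edgeR) and 0.0456 in DESeq2.

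Snhg15 had 19, 10, 11 and 10 counts in Control and 40, 15, 14, 21, 39 and 18 in LLC, a log2 fold change of 0.97 ± 0.35 (SE, adjusted p = 0.110, edgeR). Snhg20 was at 0.39 ± 0.21 (adjusted p = 0.244). Snhg17 (-0.04 ± 0.18, adjusted p = 0.913) and Snhg18 (-0.15 ± 0.22, adjusted p = 0.684) had no sample of LLC above the Control range.

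Genes of the pathway around host RNAs were compared next, and edgeR called none in these 4 lists, whose mean levels were all highest in LLC1 and LLC5. The lists share some genes, such as Eef2, Rack1, Nop56 and Ncl, so their values are not independent of each other. Of 16 other TOP mRNAs, which encode translation factors and related proteins, 16 had higher means (median log2 fold change 0.35), and LLC1 and LLC5 were the highest pair in 16. Examples are the elongation factor Eef2 (0.42 ± 0.14, SE, adjusted p = 0.101, edgeR) and the initiation factors Eif3f (0.48 ± 0.17, adjusted p = 0.0977) and Eif4b (0.47 ± 0.16, adjusted p = 0.101). Of 15 protein-coding genes that host snoRNAs, 12 had higher and 3 lower means (median 0.31), with Eef2, the ribosomal scaffold Rack1 (0.37 ± 0.14, adjusted p = 0.115) and nucleolin Ncl (0.64 ± 0.25, adjusted p = 0.129) the smallest in p.

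Of 19 snoRNP proteins and assembly factors, which package and mature snoRNAs, 16 had higher means (median 0.28). The core box C/D protein Nop58 was at 0.65 ± 0.20 (SE, adjusted p = 0.0743, edgeR), the assembly factor Znhit6 at 0.43 ± 0.14 (adjusted p = 0.0858) and the chaperone Nolc1 at 0.39 ± 0.15 (adjusted p = 0.119). DESeq2 called 1 of the 19. Of 21 genes of ribosome biogenesis and RNA polymerase I, 21 had higher means (median 0.25), led in p by Myc, the transcription factor of growth (1.44 ± 0.50, adjusted p = 0.0999), Ncl and the nucleolar helicase Ddx21 (0.90 ± 0.35, adjusted p = 0.132), and DESeq2 called 1 of the 21. Their mean log2 level was 0.94 above Control in LLC1 and 0.52 in LLC5, against 0.03 to 0.28 in the other 4.

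Nonsense-mediated decay clears spliced host RNAs, so its factors were listed too. Of 19, 18 had higher means (median 0.22) and edgeR called 0, with Smg8 at 0.43 ± 0.15 (SE, adjusted p = 0.0965), the release factor Etf1 at 0.46 ± 0.17 (adjusted p = 0.110) and Upf3b at 0.28 ± 0.11 (adjusted p = 0.145).

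Gas5 RNA is known to bind the glucocorticoid receptor, and the receptor with its targets varied widely among the LLC animals (SD of the mean log2 level 0.69, against 0.26 for ribosomal protein genes). Of 11 such genes 10 had higher means (median 0.95), and edgeR called 0 and DESeq2 2. Without LLC1 the median was 0.50 and edgeR called 3, without both LLC1 and LLC5 it was 0.33 with 2 called, and in limma voom it was 0.41. With ribosomal protein genes held level edgeR called 1. Their mean log2 level was 1.90 above Control in LLC1, 1.27 in LLC5, 0.73 in LLC6, 0.59 in LLC3, 0.21 in LLC2 and 0.07 in LLC4. LLC1, LLC5 and LLC6 led here as they did for Gas5. These animals also led the other TOP mRNAs (0.79, 0.57 and 0.25) and the ribosome biogenesis genes (0.94, 0.52 and 0.28). In ribosomal protein genes LLC2 (0.19) was just above LLC6 (0.18). Leading in these animals was thus not particular to the glucocorticoid receptor list. Cebpd was at 2.73 ± 0.75 (SE, adjusted p = 0.0506, edgeR), Tsc22d3 (encoding GILZ) at 0.80 ± 0.24 (adjusted p = 0.0689) and the co-chaperone Fkbp5 at 1.79 ± 0.61 (adjusted p = 0.0975). Of 13 cell cycle genes 5 were tested, 3 with higher and 2 with lower means, a median of 0.05 and a mean log2 level of -0.03 in LLC1 and -0.04 in LLC5, with Mcm2 (-0.41 ± 0.28, adjusted p = 0.337), Pcna (0.12 ± 0.12, adjusted p = 0.50) and Tyms (-0.14 ± 0.15, adjusted p = 0.544) the smallest in p.

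**Figure D5:**
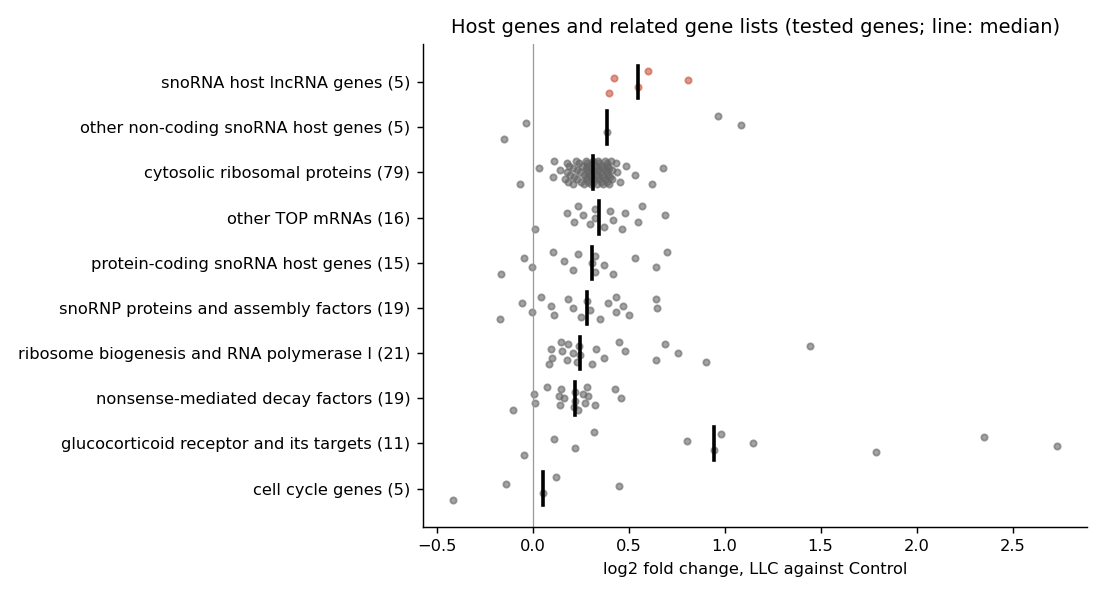
Log2 fold change of LLC against Control (x axis) of each tested gene in the host genes and 9 related lists (rows, with the number tested), with a black line at each median. The host genes have a median of 0.55, the ribosomal protein genes 0.31, the glucocorticoid receptor list 0.95 and the cell cycle genes 0.05.

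Cell type markers were set beside these values, since muscle with tumors differs in its cells. Neutrophil markers were called higher in 9 of 9 tested (11 listed, Ly6g and Camp below the filter), led by S100a8, S100a9 and Cxcr2, and summed to 1.27 to 2.72 CPM in Control and 35.9 to 77.9 in LLC. LLC5 had the highest sum (77.9 CPM), followed by LLC4 (75.7), and LLC1 (44.5) lay inside the range of the other LLC samples. Fibroblast markers (8 of 8, with Dpt, Dcn and Col1a1 smallest in p) were called lower, from 309 to 397 CPM summed in Control to 57.8 to 102 in LLC, where LLC1 had 61.5 and LLC5 76.8. Macrophage markers (8 of 9 tested) had higher means in 2 and lower means in 6. Only 1, Mrc1, was called, as lower, followed in p by C1qc and Csf1r. They summed to 26.8 to 40.4 CPM in Control and 21.9 to 40.3 in LLC.

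Of 7 endothelial markers 1, Kdr, was called lower, with Emcn and Vwf next in p, and the sums were 279 to 355 CPM in Control and 267 to 313 in LLC. Satellite cell markers (4 of 5 tested) had 2 called lower, Pax7 and Myf5, with Chodl next, and erythroid markers (5 of 6 tested) had 3 called higher, Hbb-bt, Hbb-bs and Alas2. None of the 8 lymphocyte markers passed the filter, and none of the 8 fast fibre markers, led in p by Myh1, Mylpf and Acta1, was called. The part of these cells in the host gene values was not tested.

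The snoRNAs themselves were nearly invisible in these libraries. Of 32 snoRNA genes inside the 8 hosts, 30 had a row, and 26 of these had 0 counts in every sample, which allows up to 0.141 to 0.180 CPM per library, the level of 3 counts. All 9 counted snoRNA genes of Gas5, Snord47 and Snord80 above included, were among the 26. Of the 30, 28 touch an exon of some annotated isoform of the host, and the default mode of HTSeq, if it was used for these counts, leaves out reads falling on 2 genes. The 28 include those in Snhg1 and Snhg8, hosts without a row under their current identifiers. Snora16a, Snora24 and Gm23201, the 3 with the most counts, are also among the 28. Lengths of the 30 were 60 to 205 bases, and the part of length and overlap in these counts was not tested.

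Only 3 of them reached 10 counts summed over samples. Snora16a in Snhg12 had 4, 1, 4 and 1 counts in Control and 3, 6, 1, 2, 7 and 2 in LLC1 to LLC6. Snora24 in Snhg8 had 7, 0, 3 and 1 in Control and 1, 2, 4, 2, 4 and 2 in LLC. Gm23201 in Zfas1 had 3, 3, 2 and 2 in Control and 1, 0, 1, 0, 3 and 1 in LLC. None passed the filter, so none was tested, and the ranges of the groups overlapped in each.

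Several hosts start back to back with a protein-coding gene. Zbtb37 starts 427 bp from Gas5 on the other strand and had 14, 24, 14 and 21 counts in Control and 11, 24, 12, 21, 10 and 16 in LLC1 to LLC6. The counts of LLC1 and LLC5 were the lowest, but with 12 in LLC3 and 14 in Control 1 and Control 3 they are too few to rank the animals. Its log2 fold change was -0.19 ± 0.30 (SE, adjusted p = 0.692, edgeR). Znfx1 starts 81 bp from Zfas1 and was at 0.12 ± 0.10 (adjusted p = 0.437), with 674 counts in LLC1 and 452 to 570 in the other 9 samples.

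Slc3a2, the heavy chain of amino acid transporters such as that of leucine, starts 106 bp from Snhg1, which was not analysed here. It had 412, 377, 389 and 378 counts in Control and 795, 470, 482, 554, 793 and 513 in LLC1 to LLC6. Every LLC sample was above every Control sample in CPM, as in 6.4% of all tested genes, and the log2 fold change of 0.63 ± 0.14 (SE) was called higher (adjusted p = 0.0221, edgeR). With ribosomal protein genes held level it was 0.32 ± 0.11 (adjusted p = 0.0976), no longer past the threshold. The change of 1.55-fold lay close to the minimum, and the call was lost when LLC1 (0.56) or LLC5 (0.57) was left out, for size, and when any 1 of the 4 Control samples was left out, at adjusted p of 0.0570 to 0.0763 (edgeR).

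As a description, the genes whose log2 CPM over the 6 LLC samples followed Gas5 most closely, among 10384 genes with an average log2 CPM of at least 1, were Vps16 of vesicle sorting, the initiation factors Eif1 and Eif3e, the proteasome ATPase Psmc3 and Zfp622. Their Pearson r with Gas5 ranged from 0.998 to 0.999 over the 6 samples and from 0.973 to 0.996 over the 4 samples other than LLC1 and LLC5, and all samples share the libraries' scaling. Eif1 had a log2 fold change of 0.62 ± 0.22 (SE, adjusted p = 0.108, edgeR) and Vps16 one of 0.37 ± 0.17 (adjusted p = 0.182). Among the other host genes, Zfas1 ranked 135 in likeness to Gas5 (r = 0.986), Snhg6 209 (r = 0.981), Snhg5 1099 (r = 0.922) and Snhg12 1286 (r = 0.906).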

How the data were processed

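The deposited values are raw counts of reads per gene, 1 library per mouse. According to the study's methods, the authors mapped paired reads to mm10 with TopHat2 and counted them with HTSeq at default settings for RefSeq genes. The deposited identifiers are Ensembl genes, so the annotation release and strand setting of the counts were taken as unknown. Of 39179 identifiers, 37693 were found in GENCODE M21 (GRCm38), which gave symbols, coordinates and isoforms, and start sequences came from RefSeq on GRCm38.p6.

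Genes were kept by filterByExpr (count minimum 10), scaled by TMM and tested with edgeR 4.0.16 (R 4.3.3), group being the only term, with Benjamini-Hochberg adjustment over all 12690 tested genes. A gene was called at an adjusted p of 0.05 or less and at least 1.5-fold. Log2 CPM used a prior count of 2. The second fit set library factors so that the mean log2 level of 79 ribosomal protein genes was equal in all samples. DESeq2 1.42.0 and limma 3.58.1 served as alternatives, with other factors and filters, a replicate block and the omission of single samples. On simulated counts of this comparison with 200 changed genes among 12539, edgeR recovered 78 of 100 changed by 2-fold and 96 of 100 changed by 4-fold with 6 false calls. With ribosomal protein genes also raised by 0.5 on the log2 scale, among 12555 genes, it recovered 83 and 97 of 100 with 11 false calls, and the fit relative to ribosomal protein genes recovered 64 and 97 of 100. The simulated samples of a group shared a mean for each gene, and no libraries shifted together as LLC1 and LLC5 did. These rates therefore need not hold for the host genes.

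No pair of libraries agreed within sampling noise. The labels name separate mice, and no litter or cage is given. Total counts of 16693209 to 21303084 put 3 counts at 0.141 to 0.180 CPM, and intervals and floors cover counting error only. The genes named were all hosts, the 3 tested genes of each other list with the smallest unadjusted p, the 2 ribosomal protein genes with the largest and the 2 with the smallest log2 fold change, snoRNA genes inside hosts with at least 10 counts, protein-coding genes starting within 1 kb of a host start on the other strand, and the 5 genes most like Gas5. A gene that this rule names is not reported here. The members and lists were chosen with earlier results of these data known.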

Additional observations from a re-analysis of the deposited data

Results flagged for a closer look

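No value met the criteria for a closer look. Among 30 groups of 4 or 6 samples (15 measures, namely the CPM of the 5 tested host genes and the mean log2 level of 10 gene lists, in each of 2 groups), Dixon's test for a single sample apart from its group marked 0, where chance marks about 1 in 20. In the host genes the highest LLC sample had a near neighbour, since LLC1 and LLC5 were high together, and a test for a single outlying sample does not register such a pair.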

How the results depend on the processing

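Of 459 recomputed values, 425 kept their direction and side of the threshold, or moved by less than the spread between replicates. These include large moves. Without LLC1 and LLC5 the host gene median fell from 0.55 to 0.12 and that of the glucocorticoid receptor list from 0.95 to 0.33. The number of host genes called stayed at 0 in every fit run, with TMM and with ribosomal protein genes held level, and became 1 (Gas5) with an unadjusted p and at least 1.5-fold. The removal of LLC1 and LLC5 together was chosen after seeing the data. It turned the log2 fold changes of Zfas1 (-0.062) and Snhg12 (-0.18) and, relative to ribosomal protein genes, those of Zfas1 (-0.18), Snhg6 (-0.007) and Snhg12 (-0.29). Limma voom with sample quality weights turned Snhg12 (-0.0435) and, relative to ribosomal protein genes, Zfas1 (-0.16) and Snhg12 (-0.31). Relative to ribosomal protein genes and with 1 sample left out, Zfas1 ranged from -0.0959 to 0.107 and Snhg12 from -0.049 to 0.3366, both lowest and below 0 without LLC1. Left out 1 at a time, samples moved Gas5 from 0.56 (without LLC1) to 0.92. Zbtb37 turned to 0.0208 in limma voom and 0.0572 without LLC1 and LLC5. Slc3a2, called with all samples, was 0.43 without LLC1 and LLC5 (adjusted p = 0.0013, edgeR) and 0.46 in limma voom (adjusted p = 0.0016). In both of these only the 1.5-fold minimum was missed. With the replicate block Slc3a2 was at 0.56 (adjusted p = 0.128, edgeR), short of both thresholds. Without LLC1 the median log2 fold change of the host genes was 0.33 and that of protein-coding hosts 0.20. The cause of these changes was not tested. The median of the cell cycle genes, near 0, became -0.15 with at least 10 counts in every sample, -0.0771 in limma voom, -0.0813 with the replicate block and -0.0392 without LLC1 and LLC5, and ranged from -0.11 to 0.16 with 1 sample left out.

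Replicate numbers mark different mice in the 2 groups. Same-numbered samples had correlations of -0.08 to 0.13, and only Control 4 was most like the LLC sample of its own number. The labels give no litter or cage, so whether such samples share more than a number is unknown. With the replicate block, which uses the 4 shared numbers, 0 host genes were called, the log2 fold change of Gas5 was 0.57 (adjusted p = 0.363), and that of Zfas1 relative to ribosomal protein genes was -0.0092. Over all genes the block gave 112 calls in place of 715, a filter of at least 10 counts in every sample 475, limma voom 997 and DESeq2 1052. Among the 5 tested hosts Snhg12 had the fewest counts, 47 to 225 per sample, and Snhg3, with 0 to 2, could not be tested.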

Other observations

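Over the whole table, 1484 snoRNA genes had a row, of which 1254 had 0 counts in every sample and 80 reached 10 counts in all. All snoRNA genes together took 0.00176% to 0.00210% of counts in Control and 0.00190% to 0.00337% in LLC. The share was highest in LLC1, and that of LLC5 (0.00244%) was close to that of LLC6 (0.00238%). These are shares of all counts, mitochondrial ones included, which were fewest in LLC1 and LLC5 as a percentage.

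Leaving out LLC1 and LLC5 lowered the medians of the host genes to 0.12 and of the ribosomal protein genes to 0.13 on the log2 scale, with 3 of 5 and 75 of 79 genes higher in LLC.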
